A study of Mus musculus with 6 samples.

Results

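The carbonic anhydrase genes examined here are 10 rows of the count table, found by their gene names, out of 54532 named genes. They are Car9 and Car12, which are known for their induction by hypoxia, the cytosolic forms Car2 and Car13, the membrane-bound forms Car4, Car14 and Car15, the mitochondrial form Car5b, and Car8 and Car11, whose products lack catalytic activity. All 10 passed the expression filter and were tested among 15225 genes. The samples were kidneys of mice with the genotype label Lpar3-/-, which refers to lysophosphatidic acid receptor 3, and kidneys of wild-type (WT) mice, with 3 libraries of polyadenylated RNA per group. Both groups had spent 12 h in 8% oxygen at normal pressure, so every library is hypoxic, and kidneys from normal air were not analysed here. A difference between the groups is one between genotype labels under hypoxia, and other differences between the groups cannot be told apart from genotype. The labels name no strain, sex or age, do not say which part of Lpar3 was altered, and give no source animal for a library. The p-values therefore describe the scatter among these 6 libraries, some of which may be technical.

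Carbonic anhydrases are zinc enzymes that interconvert carbon dioxide and bicarbonate with release or uptake of a proton. In the proximal tubule the membrane-bound forms work on the luminal fluid and the cytosolic form inside the cell, and together they allow filtered bicarbonate to be reclaimed. In the intercalated cells of the collecting duct the cytosolic form supplies protons for secretion into urine. Carbonic anhydrase in mitochondria supplies bicarbonate to carboxylases, and the hypoxia-inducible forms sit at the cell surface with the active site outside the cell.

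Total counts of named genes ran from 15988010 to 17743598 in the libraries labelled Lpar3-/- and from 15953794 to 17940438 in the WT libraries, and the 10 genes took 0.122% to 0.135% of a library. Lpar3 had 672, 592 and 580 counts in the libraries labelled Lpar3-/-, against 645, 634 and 577 counts in WT. The targeted gene thus gives no check of the genotype from these counts, and each direction below is taken from the labels. As a check of the tissue, the summed level of 8 proximal tubule markers was 7676 to 8333 CPM in the libraries labelled Lpar3-/- and 7454 to 8115 CPM in WT. CPM are counts scaled to the same TMM-adjusted library size, and a positive log2 fold change means a higher level in the libraries labelled Lpar3-/-.

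The stretches before the start sites of Car9, Car12 and Car5b are shown because the first pair are the forms known for hypoxic induction and the third gene is the one that passed the test between the groups. Hypoxia-inducible factors (HIF) bind the core ACGTG or GCGTG, and the Car9 promoter of human cells is a textbook case, with such a core close to the start on the opposite strand. Each line is the 250 bases before the RefSeq start, 5′ to 3′ on the gene's strand, from RefSeq promoters on GRCm38.p6. Capitals mark a match to either core on either strand. Both cores were searched on both strands, and they do not overlap each other in these lines. The windows are chr4:43506776-43507025, plus strand, for Car9, chr9:66713436-66713685, plus strand, for Car12 and chrX:164028011-164028260, minus strand, for Car5b.
Car9: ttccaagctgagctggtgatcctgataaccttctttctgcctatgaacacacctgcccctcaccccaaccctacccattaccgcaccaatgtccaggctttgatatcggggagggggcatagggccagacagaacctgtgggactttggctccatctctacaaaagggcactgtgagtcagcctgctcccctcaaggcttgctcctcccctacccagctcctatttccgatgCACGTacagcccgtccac
Car12: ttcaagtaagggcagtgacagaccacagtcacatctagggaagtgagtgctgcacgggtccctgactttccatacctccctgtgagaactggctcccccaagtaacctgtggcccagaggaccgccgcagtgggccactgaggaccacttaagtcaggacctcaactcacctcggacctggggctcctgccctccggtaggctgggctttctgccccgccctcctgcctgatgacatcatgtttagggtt
Car5b: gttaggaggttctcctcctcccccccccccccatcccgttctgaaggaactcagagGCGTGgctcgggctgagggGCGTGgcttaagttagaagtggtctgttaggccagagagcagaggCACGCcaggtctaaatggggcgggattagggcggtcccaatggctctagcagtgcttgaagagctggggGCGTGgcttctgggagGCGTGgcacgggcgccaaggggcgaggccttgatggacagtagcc

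The Car9 window held 1 match, an ACGTG on the opposite strand at 18 to 14 bases before the start. The Car12 window held none, and that of Car5b held 5 matches to GCGTG, between 194 and 41 bases before the start. Of the 7 members with a RefSeq promoter entry, 4 held a match, namely Car9, Car5b, Car14 and Car11, and 3 held none, namely Car12, Car4 and Car15. Among 32851 promoters of the same length, 38.6% held at least 1 match and 6.58% at least 3. These shares were not matched for base make-up, and both cores contain the pair CG. The Car5b window was 63.6% G and C with 12 such pairs, where the medians of these promoters were 52.4% and 6. A match is only a stretch of letters and does not show that a factor binds there.

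**Figure D1:**
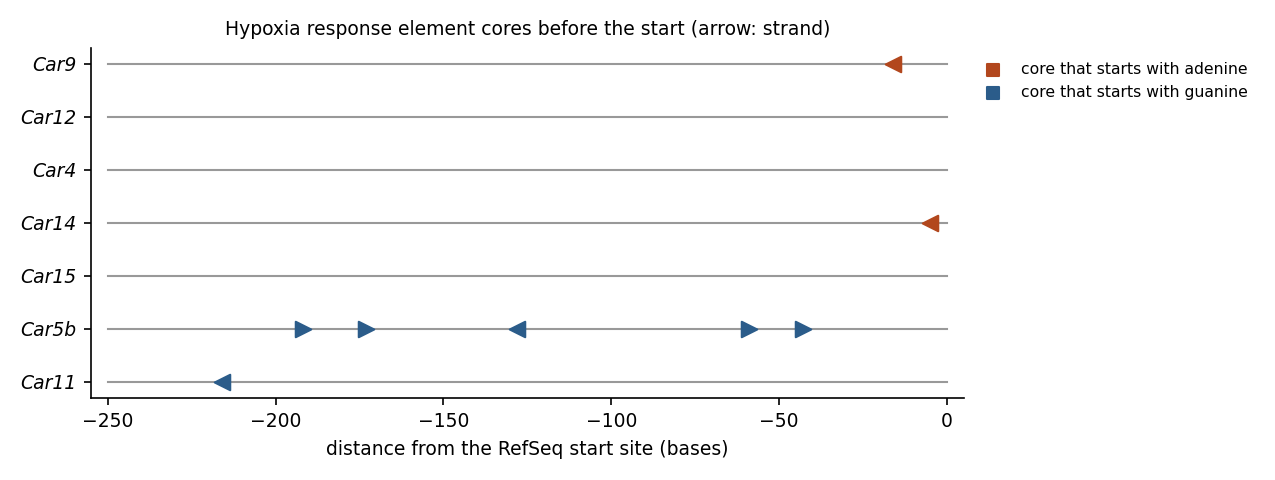
Matches to the cores of the hypoxia response element in the 250 bases before the RefSeq start of 7 carbonic anhydrase genes. The x axis is the distance from the start in bases, arrows point along the strand of the match, and colour gives the core. Car5b holds 5 matches, Car9, Car14 and Car11 hold 1 each, and Car12, Car4 and Car15 hold none. Car11 has a pair of annotated starts, and the match lies before the upstream one.

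Car5b, a mitochondrial form, was lower in the libraries labelled Lpar3-/-. Car9 and Car12 did not pass the test, and Car2, the most abundant cytosolic form, was higher without passing it. The differences between these fold changes were not tested. Car5a, a further mitochondrial form outside the 10 genes, had a log2 fold change of 0.37 (adjusted p = 0.683, edgeR). In all, 1 of the 10 genes was called at an adjusted p below 0.05 over all genes, and it was lower (edgeR quasi-likelihood test, Benjamini-Hochberg adjustment). Over all genes tested, 0.374% were called, and 0.250% were called lower. At an unadjusted p under 0.05 there were 3 of the 10 (Car5b, Car2 and Car9), against 9.18% of all genes. In 3 of the 10 (Car5b, Car2 and Car15) the groups did not overlap, against 13.7% of all genes. Of the 10 fold changes, 4 were positive and 6 negative, with a median of -0.042 on the log2 scale, where the median of all genes was -0.0036.

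**Figure D2:**
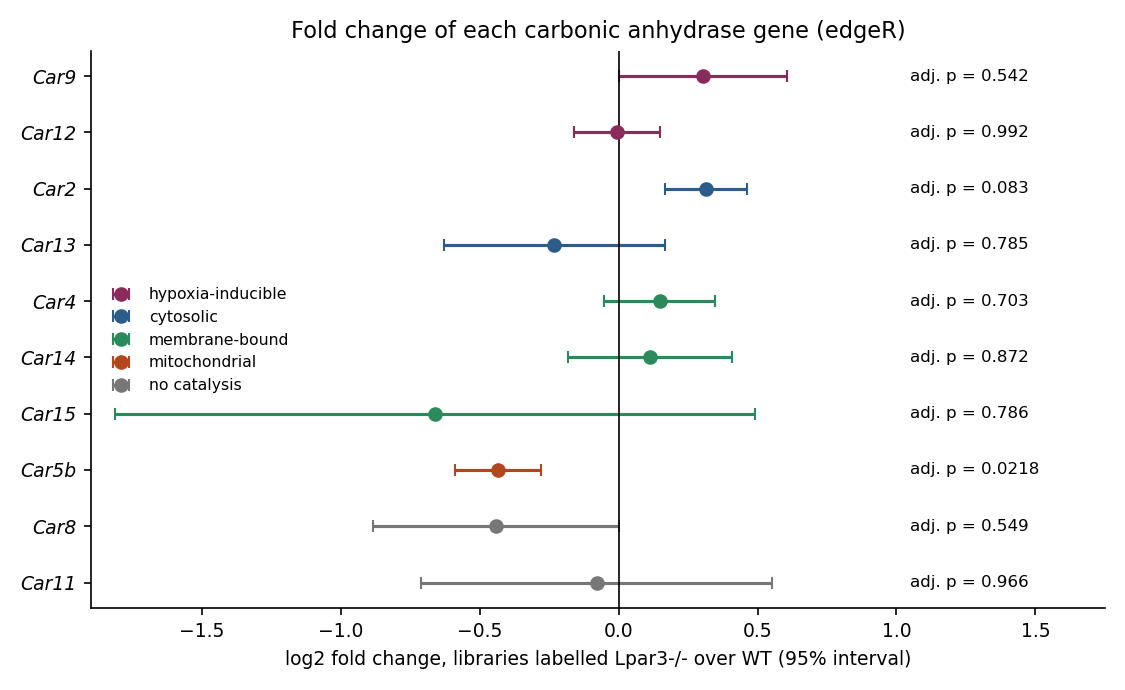
Log2 fold change of each of the 10 genes, libraries labelled Lpar3-/- over WT, with the 95% interval of the edgeR fit and the adjusted p over all genes tested. Colours give the kind of enzyme. Car5b lies at -0.44 and Car2 at 0.31, with intervals on opposite sides of 0, and Car12 lies at -0.0063.

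Car9 encodes a transmembrane enzyme of the cell surface and is among the most used marker genes of hypoxia. It had 16.2, 21.9 and 22.9 CPM in the libraries labelled Lpar3-/-, against 18.3, 15.3 and 15.7 CPM in WT. The groups overlapped, since replicates 2 and 3 labelled Lpar3-/- lay above every WT library and replicate 1 lay among them. On the log2 scale the fold change was 0.30, its SE 0.14 and its 95% interval 0.00082 to 0.61, and it did not pass (adjusted p = 0.542, edgeR quasi-likelihood). With 1 library left out it ran from 0.21 without replicate 3 labelled Lpar3-/- (adjusted p = 0.925, edgeR) to 0.45 without replicate 1 labelled Lpar3-/- (adjusted p = 0.306, edgeR), and it passed in none of these fits. The gene (ENSMUSG00000028463) lies on chr4:43506966-43513729, and an exon overlaps one of Gm12454 on the other strand. The sources used here do not state the strand setting of the counting, so reads of the overlap cannot be told apart.

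Car12, a further transmembrane form with an outward-facing active site, had 455, 430 and 443 CPM in the libraries labelled Lpar3-/-, against 460, 455 and 419 CPM in WT. The groups overlapped fully, and the means differed by less than the spread within either group. The log2 fold change was -0.0063 (SE 0.071, adjusted p = 0.992, edgeR quasi-likelihood), and the 95% interval of the ratio ran from 0.895 to 1.11. The sign of this fold change turned in 3 of the 6 fits with 1 library left out, at values of at most 0.019. Car12 (ENSMUSG00000032373) lies on chr9:66713686-66766845.

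The hypoxia-inducible pair stood beside a list of 31 other HIF targets, in which 25 fold changes were negative and 6 positive. The list's median was -0.21 on the log2 scale, and 0 of its members were called higher and 3 lower, where 0.250% of all genes were called lower. At an unadjusted p under 0.05 there were 12 of the 31, each with a negative fold change, against 9.18% of all genes in both directions. The median ran from -0.22 to -0.14 with 1 library left out, with -0.14 without WT replicate 3, and it was -0.13 by limma on log2(FPKM + 1). The called genes were Epo, the erythropoietin gene (1.06 ± 0.102 CPM in the libraries labelled Lpar3-/-, 3.65 ± 0.263 CPM in WT), Bhlhe40, a transcriptional repressor of the clock (42.2 ± 3.74 CPM in the libraries labelled Lpar3-/-, 63.1 ± 8.58 CPM in WT) and Hmox1, heme oxygenase 1 (50.5 ± 4.09 CPM in the libraries labelled Lpar3-/-, 71.7 ± 7.99 CPM in WT), as SD with n = 3 each. Their adjusted p-values were 0.0136, 0.0405 and 0.0462 (edgeR quasi-likelihood). Kdm3a, a histone demethylase, was next by p, with a log2 fold change of -0.36 and an adjusted p of 0.0682 (edgeR). Without any 1 of the libraries labelled Lpar3-/- the count of called genes in the list was 0, and without WT replicate 2 or WT replicate 3 it was 1. The highest log2 fold change in this list was 0.20, that of the glucose transporter gene Slc2a1, which is named for that place, whereas that of Car9 was 0.30. The difference between Car9 and the list was not tested.

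**Figure D3:**
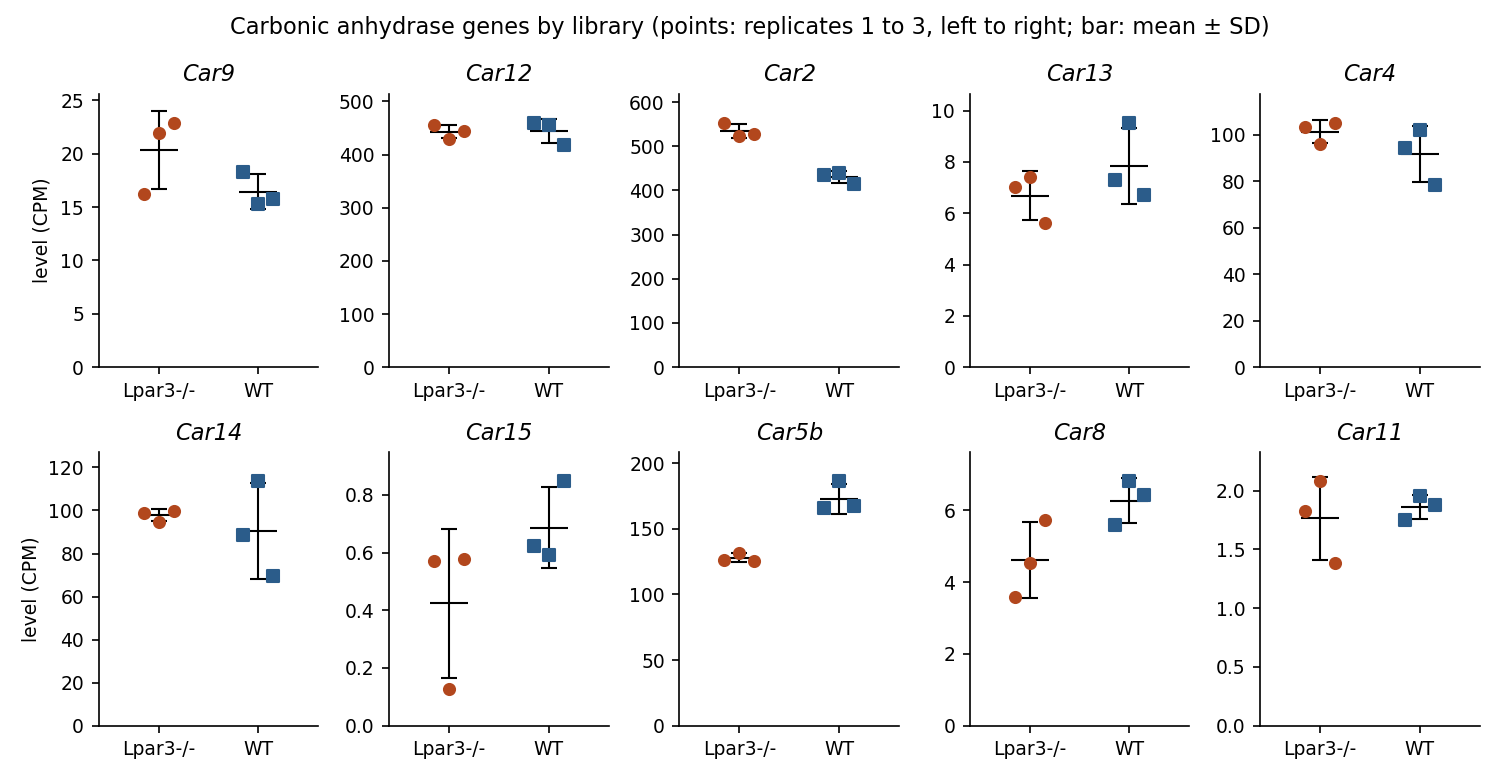
Level of each carbonic anhydrase gene in CPM (y axis, from 0) in the 3 libraries labelled Lpar3-/- (left) and the 3 WT libraries (right) of each panel. Points are libraries, and bars give the mean ± SD. In the panels of Car2 and Car5b the groups do not overlap and differ in opposite directions, and in that of Car12 they overlap.

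Car2 encodes the fast cytosolic enzyme that is the main carbonic anhydrase of the kidney. It had 553, 524 and 527 CPM in the libraries labelled Lpar3-/-, against 435, 440 and 415 CPM in WT, or 9710, 8324 and 9120 counts in the libraries labelled Lpar3-/- against 7703, 7444 and 6860 counts in WT. Every library labelled Lpar3-/- lay above every WT library, and the gap between the groups was wider than the range within either. The means were 535 ± 15.9 CPM in the libraries labelled Lpar3-/- and 430 ± 13.4 CPM in WT (SD, n = 3 each), a 1.24-fold difference. On the log2 scale the difference was 0.31 (SE 0.068), and its 95% interval ran from 0.17 to 0.46. Its rank by p was 114 among all genes tested, but it did not pass, with an adjusted p of 0.0830 by edgeR's quasi-likelihood test. DESeq2 called it, with an adjusted p of 0.000609. Car2 (ENSMUSG00000027562) lies on chr3:14886273-14900770, 131.3 Mb from Lpar3 on the same chromosome, in a cluster with Car13, Car1 and Car3.

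Cells known to be rich in Car2 gave mixed values. The summed level of 8 intercalated cell markers was 320 to 345 CPM in the libraries labelled Lpar3-/- and 264 to 408 CPM in WT, so those groups overlapped. The summed level of 6 markers of the thick ascending limb was 5861 to 6128 CPM in the libraries labelled Lpar3-/- and 4743 to 5353 CPM in WT, without overlap, a ratio of means of 1.18. That of 6 principal cell markers was 703 to 814 CPM in the libraries labelled Lpar3-/- and 649 to 717 CPM in WT. EdgeR called 0 members of these 3 lists, while DESeq2 called 2 and limma-voom 1 of the thick ascending limb. At an unadjusted p under 0.05 there were 0 of 8, 4 of 6 and 1 of 5 tested by edgeR, against 9.18% of all genes. In the proximal tubule, where the cytosolic form also works, the marker sums overlapped. For segments 1 and 2 they were 7676 to 8333 CPM in the libraries labelled Lpar3-/- and 7454 to 8115 CPM in WT. For segment 3 they were 1352 to 1483 CPM in the libraries labelled Lpar3-/- and 1155 to 1907 CPM in WT. The ratios of means were 1.04 and 0.878. The part of any of these cells in the level of Car2 was not tested. In bulk tissue more cells of a type and more RNA per cell cannot be told apart.

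Car13, the other cytosolic form, was a low gene with 7.01, 7.43 and 5.61 CPM in the libraries labelled Lpar3-/-, against 7.28, 9.53 and 6.71 CPM in WT. The groups overlapped, and WT replicate 2 was the highest library. The log2 fold change was -0.23 (SE 0.18, adjusted p = 0.785, edgeR quasi-likelihood). It was -0.068 without WT replicate 2, -0.12 without replicate 3 labelled Lpar3-/- and -0.33 without WT replicate 3. The neighbours Car2 and Car13 thus had fold changes of opposite sign, of which neither passed. Car13 lies on chr3:14641727-14663002.

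The membrane-bound forms of the proximal tubule were Car4, which is held by a lipid anchor at the cell surface, and Car14, which spans the membrane. Car4 had 103, 95.9 and 105 CPM in the libraries labelled Lpar3-/-, against 94.3, 102 and 78.5 CPM in WT. Car14 had 98.9, 94.7 and 99.7 CPM in the libraries labelled Lpar3-/-, against 88.4, 114 and 69.4 CPM in WT. For both genes the groups overlapped, with WT replicate 2 the highest and WT replicate 3 the lowest WT library. The log2 fold changes were 0.15 for Car4 (SE 0.092, 95% interval -0.054 to 0.35, adjusted p = 0.703) and 0.11 for Car14 (SE 0.13, 95% interval -0.18 to 0.41, adjusted p = 0.872), by edgeR's quasi-likelihood test. WT replicate 3 decided the sign of Car14, whose log2 fold change was -0.042 without it, and without WT replicate 2 it was 0.31. For Car4 the log2 fold change was 0.051 without WT replicate 3 and 0.23 without WT replicate 2.

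The ratio of Car4 to Car14 in FPKM, the authors' deposited values per gene length, was 1.35, 1.31 and 1.37 in the libraries labelled Lpar3-/- and 1.38, 1.16 and 1.46 in WT. Its mean was 1.34 in both groups, so within the spread of these libraries the pair kept the same proportion. An exon of Car14 (chr3:95897768-95904691) overlaps one of Aph1a on the other strand, and its start is 50.3 Mb from Lpar3. Car4 lies on chr11:84957786-84966044. The 8 markers of proximal tubule segments 1 and 2, where both enzymes are known to act, had a median log2 fold change of 0.052. EdgeR and limma-voom called 0 of them and DESeq2 called 1. In the edgeR fit 4 of the 8 had an unadjusted p under 0.05, against 9.18% of all genes. Their log2 fold changes differed in sign, with 0.38 for Slc5a12, 0.24 for Slc6a19, -0.30 for Slc5a2 and -0.19 for Slc22a6, genes chosen after their values were seen.

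Car15 encodes a lipid-anchored form that is active in mice and has been lost as a functional gene in humans. It was barely detected, with 10, 2 and 10 counts in the libraries labelled Lpar3-/-, against 11, 10 and 14 counts in WT. In CPM the groups did not overlap (0.126 to 0.578 in the libraries labelled Lpar3-/-, 0.592 to 0.847 in WT), but the gap between them was under the range within either group. Its log2 fold change of -0.66 had an SE of 0.53 (adjusted p = 0.786, edgeR quasi-likelihood), and an exon overlaps one of Gm20518 on the same strand. Without replicate 2 labelled Lpar3-/-, the library with 2 counts, the log2 fold change was -0.25, and in the other fits with 1 library left out it ran from -0.93 to -0.48.

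Car5b encodes the mitochondrial carbonic anhydrase that is found in many tissues. It had 126, 132 and 126 CPM in the libraries labelled Lpar3-/-, against 166, 186 and 167 CPM in WT, or 2218, 2093 and 2172 counts in the libraries labelled Lpar3-/- against 2933, 3146 and 2762 counts in WT. All 3 libraries labelled Lpar3-/- lay below all 3 WT libraries and within a narrow range. The means were 128 ± 3.42 CPM in the libraries labelled Lpar3-/- and 173 ± 11.5 CPM in WT (SD, n = 3 each), and the fitted level was 26.0% lower in the libraries labelled Lpar3-/-. On the log2 scale the difference was -0.44 (SE 0.071), and its 95% interval ran from -0.59 to -0.28, and the adjusted p was 0.0218 (edgeR quasi-likelihood), which gave the gene rank 38 by p among all genes tested. Car5b (ENSMUSG00000031373) lies on chrX:163976822-164027997, minus strand, and no exon of another annotated gene overlaps its exons.

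The call of Car5b was kept without any 1 of the WT libraries, with adjusted p-values from 0.0168 to 0.0456 (edgeR). It was lost without replicate 1, 2 or 3 labelled Lpar3-/- (adjusted p = 0.136, 0.104 and 0.212, edgeR), although the fold change stayed between -0.46 and -0.42. WT replicate 2, the highest library, also had the highest summed levels of the macrophage, stromal and tubular injury markers. The 7 macrophage markers summed to 93.5 to 112 CPM in the libraries labelled Lpar3-/- and 112 to 162 CPM in WT, and the 6 adipocyte markers to 34.4 to 72.2 CPM in the libraries labelled Lpar3-/- and 79.3 to 157 CPM in WT. EdgeR called 0 members of the macrophage, stromal, injury and adipocyte lists, and DESeq2 called 2 of the adipocyte list. At an unadjusted p under 0.05 there were 3 of 7, 3 of 6, 5 of 7 and 4 of 6 by edgeR, against 9.18% of all genes. Every fold change in these lists was negative, with medians of -0.55, -0.46, -0.40 and -1.50 on the log2 scale. The part of the cells behind these lists in the level of Car5b was not tested. Without WT replicate 2 the log2 fold change of Car5b was -0.38, with an adjusted p of 0.0322 (edgeR).

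Genes that use bicarbonate did not pass as single genes. Of 10 genes of carboxylases, carbamoyl phosphate synthesis and the bicarbonate-activated adenylyl cyclase, 9 were tested and 0 were called by edgeR, DESeq2 or limma-voom. In the edgeR fit 1 of the 9 had an unadjusted p under 0.05, against 9.18% of all genes. The list had a median log2 fold change of 0.014. Pcx, the mitochondrial pyruvate carboxylase, had 1158 ± 71.4 CPM in the libraries labelled Lpar3-/- and 1147 ± 74.7 CPM in WT (SD, n = 3 each), and is named here outside the rule. The gene with the lowest p was Mccc2, a subunit of the carboxylase of leucine breakdown (114 ± 7.68 CPM in the libraries labelled Lpar3-/-, 102 ± 1.25 CPM in WT, log2 fold change 0.17, adjusted p = 0.499, edgeR).

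The forms without catalytic activity were low. Car8, whose product binds the inositol trisphosphate receptor, had 63, 72 and 99 counts in the libraries labelled Lpar3-/-, against 99, 115 and 106 counts in WT. In CPM this was 3.59, 4.53 and 5.72 in the libraries labelled Lpar3-/-, against 5.59, 6.80 and 6.41 in WT, with replicate 3 labelled Lpar3-/- just above WT replicate 1. On the log2 scale the difference was -0.44 (SE 0.20), and its 95% interval ran from -0.88 to 0.0021 (adjusted p = 0.549, edgeR quasi-likelihood). With 1 library left out it ran from -0.62 without replicate 3 labelled Lpar3-/- to -0.29 without replicate 1 labelled Lpar3-/-, and it passed in none of these fits. Car11, which encodes a secreted relative, had 32, 33 and 24 counts in the libraries labelled Lpar3-/-, against 31, 33 and 31 counts in WT, and a log2 fold change of -0.079 (SE 0.29).

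Per length, Car2 took the largest share among the 10 genes in all 6 libraries. Its mean level was 219 ± 6.98 FPKM in the libraries labelled Lpar3-/- and 176 ± 6.03 FPKM in WT (SD, n = 3 each). In the libraries labelled Lpar3-/- it was followed by Car12 (57.9 ± 1.70 FPKM), Car4 (51.3 ± 2.46), Car14 (38.2 ± 1.04), Car5b (20.0 ± 0.544) and Car9 (8.76 ± 1.55). In WT the same genes followed, Car12 with 58.0 ± 3.09 FPKM, Car4 with 46.2 ± 6.21, Car14 with 35.3 ± 8.75, Car5b with 27.0 ± 1.87 and Car9 with 7.07 ± 0.689. The remaining 4 genes stayed at or below 4.12 FPKM in every library.

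The order of the means was the same in both groups, but not all neighbours were apart. In WT the libraries overlapped between Car4 and Car14 and between Car14 and Car5b. In the libraries labelled Lpar3-/- those pairs did not overlap, and only Car8 and Car11 did. The lengths behind these values are those of the deposited table, which for Car12 (7597 bases) and Car5b (6354 bases) exceed the longest coding transcript by 2.04-fold and 1.85-fold. With the transcript lengths in their place, a choice made after seeing the data, Car5b had 37.0 ± 1.01 FPKM in the libraries labelled Lpar3-/- and 49.9 ± 3.46 FPKM in WT, and the order of the 10 genes stayed as it was.

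**Figure D4:**
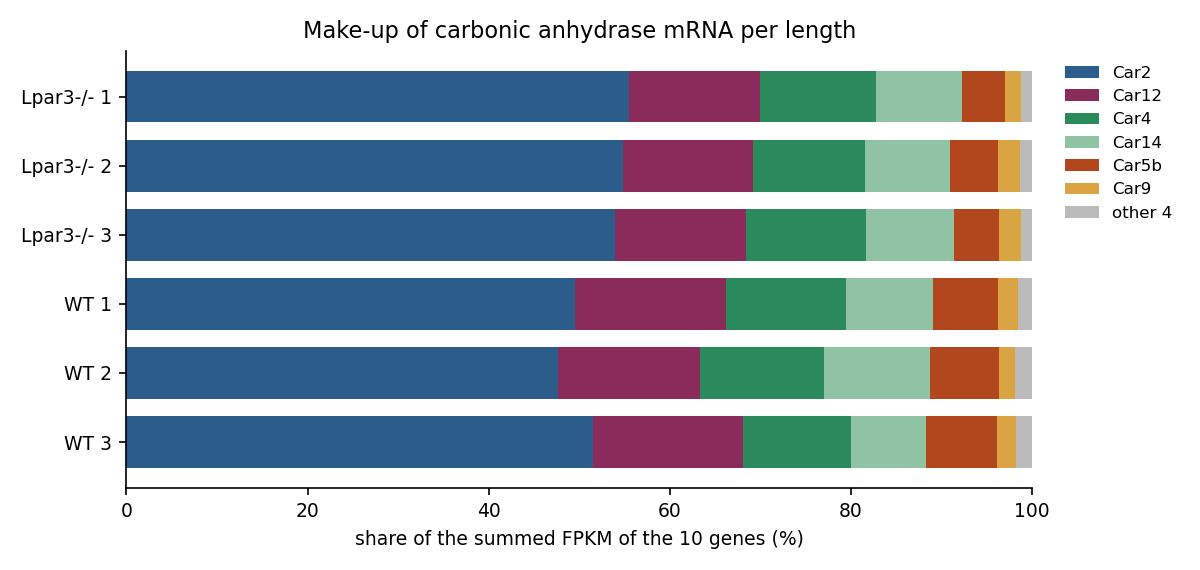
Share of each gene in the summed FPKM of the 10 carbonic anhydrase genes (x axis, %), with 1 bar per library, the libraries labelled Lpar3-/- above and WT below. Shares use the gene lengths of the deposited table. Car2 takes 54.0% to 55.5% in the libraries labelled Lpar3-/- and 47.7% to 51.5% in WT, and Car5b 4.83% to 5.25% in the libraries labelled Lpar3-/- and 7.19% to 7.90% in WT.

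The make-up of the 10 genes therefore differed between the groups at a few of them. Car3, Car5a and Car7 are not among them and are left out of these shares and sums. Car3 had 9.79 ± 4.59 FPKM in the libraries labelled Lpar3-/- and 26.7 ± 10.4 FPKM in WT (SD, n = 3 each). The shares and sums given here use the lengths of the deposited table and depend on that choice. With transcript lengths the mean of Car2 was 297 FPKM in the libraries labelled Lpar3-/- and 238 FPKM in WT, and that of Car12 118 and 119 FPKM. With the deposited lengths, Car2 took 55.5%, 54.8% and 54.0% of the summed FPKM in the libraries labelled Lpar3-/-, against 49.5%, 47.7% and 51.5% in WT. Car5b took 4.83%, 5.25% and 4.90% in the libraries labelled Lpar3-/-, against 7.19%, 7.68% and 7.90% in WT. The share of Car12 was lower too (14.4% ± 0.106 in the libraries labelled Lpar3-/- and 16.3% ± 0.533 in WT, SD, n = 3 each) although its own level was close to equal, since shares of a sum move with every other member. The summed FPKM of the 10 genes was 410, 392 and 400 in the libraries labelled Lpar3-/-, against 359, 379 and 329 in WT. The difference in the level of Car2 equalled 96.5% of the difference between these mean sums. This part holds for the 10 genes and not for a sum with Car3, whose level differed in the other direction.

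The ratio of Car2 to Car5b within a library, which does not depend on the library size, was 11.5, 10.4 and 11.0 in the libraries labelled Lpar3-/-, against 6.89, 6.21 and 6.52 in WT. The groups lay far apart relative to their spread, and the mean ratio was 1.68-fold higher in the libraries labelled Lpar3-/-. As both genes were picked for their opposite fold changes, this ratio is a description and carries no test. The ratio of Car2 to Car12 was 3.82, 3.83 and 3.73 in the libraries labelled Lpar3-/-, against 2.97, 3.03 and 3.11 in WT.

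Genes that carry bicarbonate, protons and ammonia across tubule membranes, the partners of carbonic anhydrase in acid-base transport, did not pass as single genes. Of 14 bicarbonate transporters 12 were tested, with 4 positive and 8 negative fold changes and a median of -0.064 on the log2 scale. All 14 proton and ammonia transporters were tested, with 7 of each sign and a median of 0.0083. EdgeR called 0 of the 26, and DESeq2 and limma-voom also called 0. In the edgeR fit 2 of the 26 had an unadjusted p under 0.05, close to the 9.18% share of all genes. Slc4a4, the basolateral bicarbonate exit of the proximal tubule, had 1900 ± 73.2 CPM in the libraries labelled Lpar3-/- and 1988 ± 222 CPM in WT (SD, n = 3 each), and is named here outside the rule for its role.

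The pair with an unadjusted p under 0.05 were Atp12a, a proton-potassium pump, and Atp6v0a4, a proton pump subunit of intercalated cells. Atp12a had 1.88, 1.83 and 1.68 CPM in the libraries labelled Lpar3-/-, against 3.05, 4.26 and 4.35 CPM in WT, without overlap (log2 fold change -1.11, SE 0.25, adjusted p = 0.0974, edgeR). Atp6v0a4 had 413, 388 and 415 CPM in the libraries labelled Lpar3-/-, against 369, 332 and 243 CPM in WT (log2 fold change 0.36, SE 0.12, adjusted p = 0.350, edgeR). Neither passed, and they differed in sign. Among bicarbonate transporters the lowest p was that of Slc26a4, the pendrin gene (log2 fold change -0.29, adjusted p = 0.606, edgeR), followed by Slc26a7, Slc26a1 and Slc4a1, with adjusted p-values from 0.662 to 0.721.

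**Figure D5:**
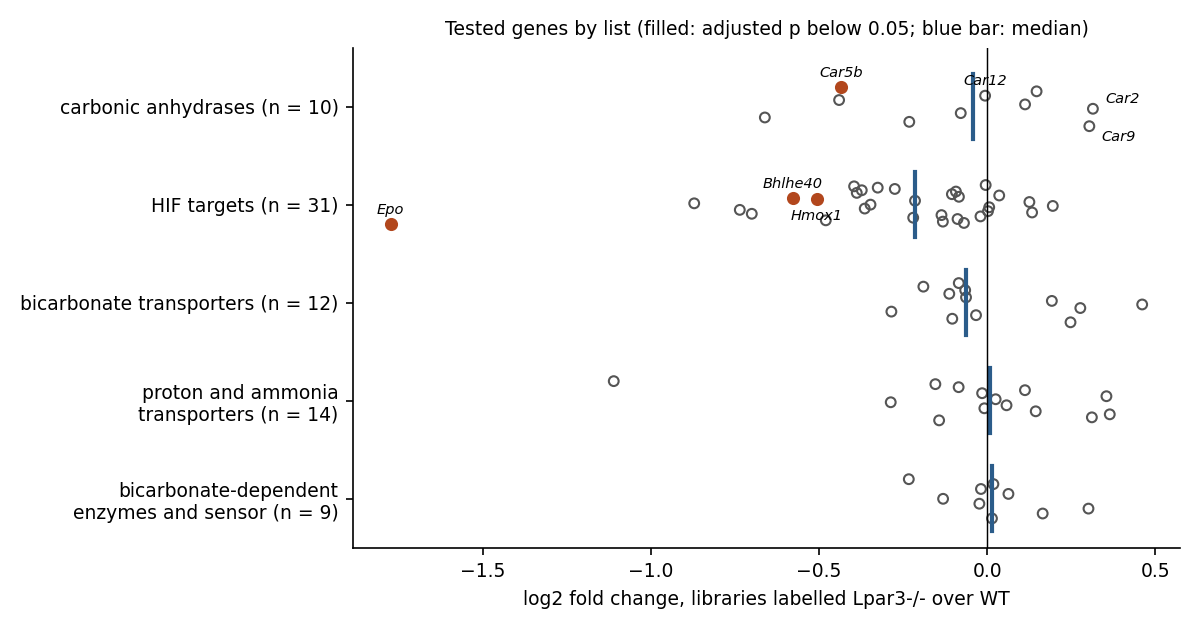
Log2 fold change, libraries labelled Lpar3-/- over WT, of the tested genes of each list, with 1 point per gene. Filled points have an adjusted p below 0.05 (edgeR), and blue bars are medians. Car5b is the filled point among the carbonic anhydrases, Epo, Bhlhe40 and Hmox1 are those among the HIF targets, and the 3 transport and enzyme lists hold none.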

How the data were processed

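Per the labels' protocols, polyadenylated mRNA was captured on poly-T beads, fragmented and copied with random hexamers. The submitters' processing notes name the build GRCm38 and, as tools, DESeq2 1.20.0, HISAT2 2.0.5 and featureCounts 1.5.0-p3. The strand setting, the annotation and how reads matching more than 1 gene were treated are not given in the sources used. The counts deposited by the authors are whole reads per gene and library. The FPKM deposited by the authors equal counts per gene length and a library constant (largest relative deviation 1.78e-08 over 13004 genes), so they add no measurement.

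Of 54909 rows, 377 without a name (0.259% to 0.362% of counts) were left out. The test was edgeR 4.0.16 in R 4.3.3 (quasi-likelihood, default filter, TMM, 6 libraries, no covariate), with Benjamini-Hochberg adjustment over all genes tested. The SE is the fold change divided by the root of F. Intervals cover the spread between these libraries. Alternatives were DESeq2 1.42.0, limma-voom (limma 3.58.1), other normalizations and filters, fits without 1 library, a block for the replicate number, and limma on log2 FPKM with 1 or 0.1 added. The tests were tried on simulated data first. Members and lists were chosen with earlier results of these data known. The symbol of pyruvate carboxylase in the list was changed to that of the table, Pcx, once the table was read. Named by rule were the members, Lpar3, called list members and up to 4 per pathway list with the lowest p. Pcx, Slc2a1, Slc4a4, some proximal tubule markers and the untested Car1, Car6 and Car10 were named outside this rule. Gene models are GENCODE M21, whose coordinates equal those of the table for all 10 members. No library was a copy of another, as the chi-square of counts per degree of freedom was at least 4.21 for every pair.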

Additional observations from a re-analysis of the deposited data

How the results depend on the processing

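EdgeR called 1 of the 10 carbonic anhydrase genes, and with DESeq2 or without a filter on low counts it was 2 (1 higher, Car2, and 1 lower, Car5b), whereas each of the 3 limma fits on FPKM called 0. With 1 library left out the count ran from 0 to 1, with 0 for the higher direction throughout, and none of these settings turned the sign of Car2 (0.29 to 0.33) or Car5b (-0.46 to -0.38). Signs turned for genes that no setting called. With 1 library left out, Car12 ran from -0.044 to 0.019, with 0.015 without Lpar3-/- replicate 2 and 0.012 without WT replicate 2, Car11 from -0.21 to 0.071, and Car14 from -0.042 without WT replicate 3 to 0.31. Of the HIF targets edgeR called 3, DESeq2 6, the fit without a filter 8, and limma-voom, the replicate block and each of the FPKM fits 1, with 0 to 3 when 1 library was left out. Of the transport genes 4 were called without a filter and 0 with 1 library left out. Over all genes 57 were called, against 171 by DESeq2, 520 without a filter and 4 to 13 on FPKM. Without replicate 1, 2 or 3 labelled Lpar3-/- the count was 12, 26 and 12. Without WT replicate 1, 2 or 3 it was 149, 72 and 50. The cause of these changes was not tested.

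The deviations of same-numbered libraries correlated at 0.011, 0.031 and 0.067, and those of differently numbered libraries at -0.075 to 0.042. All were close to 0, and whether same-numbered libraries shared a step of preparation was not tested. With the replicate number as a block, 80 genes were called, against 57 without it. Car5b kept its call (edgeR adjusted p = 0.0263) and Car2 did not pass (0.0976). Depth limits Car15, with 2 to 14 counts per library.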

Other observations

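The other carbonic anhydrase genes of the table were low or silent, apart from Car3. Car5a, the mitochondrial form that is best known from liver, had 70, 65 and 89 counts in the libraries labelled Lpar3-/-, against 51, 69 and 54 counts in WT. Its log2 fold change was 0.37 (SE 0.22, edgeR adjusted p = 0.683), of opposite sign to that of Car5b, and the difference between both fold changes was not tested. Car7, a cytosolic form known from brain, had 69, 54 and 66 counts in the libraries labelled Lpar3-/-, against 48, 50 and 64 counts in WT (log2 fold change 0.23, adjusted p = 0.839, edgeR). Car1, the abundant form of red cells, and Car10 had 0 counts in all 6 libraries, and Car6, the salivary form, had 3 counts in replicate 3 labelled Lpar3-/- and 0 in each of the others.

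Car3, which is abundant in fat and muscle, had 28.2 ± 13.2 CPM in the libraries labelled Lpar3-/- and 77.0 ± 30.0 CPM in WT (SD, n = 3 each, log2 fold change -1.45, edgeR adjusted p = 0.0767). The 6 adipocyte markers summed to 39.0, 72.2 and 34.4 CPM in the libraries labelled Lpar3-/-, against 157, 130 and 79.3 CPM in WT. Within each group the libraries had the same order for Car3 as for the marker sum.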
